A study of Homo sapiens with 6 samples.

Results

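The miRNAs described here are 9 mature miRNAs of precursors and families that have been described as made without the nuclear enzyme Drosha. They are hsa-miR-320a-3p, hsa-miR-320b, hsa-miR-320c, hsa-miR-320d, hsa-miR-484, hsa-miR-3615, hsa-miR-877-5p, hsa-miR-877-3p and hsa-miR-1226-3p. They were chosen by name, with earlier results of these data known. miR-320b, miR-320c and miR-320d were taken in as relatives of miR-320a. The list makes up 9 of the 1498 known human miRNAs and of the 1582 rows in the table. The libraries come from MDA-MB-231, a human triple-negative breast cancer cell line. Small RNA was sequenced from 3 samples transfected with lentiviral RARαS77A, a retinoic acid receptor α whose serine at the CDK7 phosphorylation site was replaced by alanine, and from 3 non-transfected control samples. As the control received no vector, delivery of the construct and the mutant receptor cannot be told apart, and no source used here says whether the samples of a group are separate cultures. The p-values therefore measure the spread between these libraries, which may be technical.

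Most miRNAs begin as a hairpin in a long transcript. Drosha, with its partner DGCR8, cuts the hairpin out in the nucleus, and Dicer removes the loop in the cytoplasm. Some hairpins skip the first cut. In one route, the start of a transcript folds into a hairpin by itself, so that its 5′ end is the capped transcription start and its 3′ end is set by early termination of RNA polymerase II. miR-320a, miR-484 and miR-3615 are assigned to this route. In the other route, a very short intron is spliced out, opened by the debranching enzyme and folded into a hairpin. Such introns are called mirtrons, and miR-877 and miR-1226 are examples. Both kinds of hairpin are then cut by Dicer, and 1 of the strands is loaded into an Argonaute protein, which uses the seed, bases 2 to 8 of the miRNA, to find its target mRNAs.

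The mature sequences of 8 of the 9 miRNAs are shown because they bear on which reads can be told apart and on where each hairpin ends. They are from RefSeq (GRCh38.p14), written 5′ to 3′ with the seed in capitals. hsa-miR-320a-3p had no entry.
hsa-miR-320b: aAAAGCUGgguugagagggcaa
hsa-miR-320c: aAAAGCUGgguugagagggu
hsa-miR-320d: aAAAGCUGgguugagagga
hsa-miR-484: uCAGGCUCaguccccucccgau
hsa-miR-3615: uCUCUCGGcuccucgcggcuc
hsa-miR-877-5p: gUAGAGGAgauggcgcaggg
hsa-miR-877-3p: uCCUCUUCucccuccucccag
hsa-miR-1226-3p: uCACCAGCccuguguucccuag

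hsa-miR-320b, hsa-miR-320c and hsa-miR-320d share 1 seed, and the other 5 sequences have a seed of their own among the 9 miRNAs. From the 5′ end, miR-320b and miR-320c are identical over 19 bases, and each of them is identical to miR-320d over 18 bases, so these miRNAs differ only in their last bases. No source used here says how reads that match several rows were shared out, and the split between these rows is uncertain to that extent. The split between them and miR-320a-3p may be uncertain too, as its sequence was not at hand to compare. miR-320b, miR-320c and miR-320d each come from 2 precursors with the same mature sequence. No other row of the table had counts within 5% of any of the 9 miRNAs in all 6 libraries.

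The annotated positions (GENCODE 29, GRCh38) set the mirtrons apart from the other precursors. The MIR877 hairpin at chr6:30584332-30584417, plus strand, spans 86 bases and is the same stretch as an intron of ABCF1, which encodes a translation factor, in 3 annotated transcripts. The MIR1226 hairpin at chr3:47849555-47849629, plus strand, spans 75 bases and equals an intron of DHX30, an RNA helicase gene, in 6 annotated transcripts. The first base of miR-877-5p is therefore the first base of the intron, and the last bases of miR-877-3p and miR-1226-3p are its end. In keeping with the usual borders of introns, miR-877-5p begins with gu and the other arms named end with ag.

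MIR484 at chr16:15643294-15643372, plus strand, lies in an exon of NDE1, a gene of the mitotic and centrosomal machinery, in a part annotated as UTR. The nearest annotated NDE1 start is 27 bases upstream of the hairpin. MIR3615 at chr17:74748613-74748699, plus strand, overlaps a UTR exon of SLC9A3R1, which encodes a scaffold protein under the plasma membrane. The nearest annotated SLC9A3R1 start lies inside this hairpin, 39 bases from its first base, and an exon of the antisense gene AC016888.1 lies on the other strand. The 6 precursors of miR-320b, miR-320c and miR-320d have no such position. MIR320B2 at chr1:224257040-224257110, minus strand, lies in an intron of NVL, and its nearest annotated start on the same strand is 11023 bases away. MIR320C1 at chr18:21683518-21683589, plus strand, lies antisense to ABHD3, 9890 bases from the nearest start. The start nearest to MIR320D1 at chr13:40727816-40727887, minus strand, is that of an MRPS31 transcript, 21726 bases upstream. For MIR320B1, MIR320C2 and MIR320D2, no start on the same strand was annotated within 20 kb. An annotated start at or near the hairpin was thus found for miR-484 and miR-3615, and not for miR-320b, miR-320c and miR-320d.

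**Figure D1:**
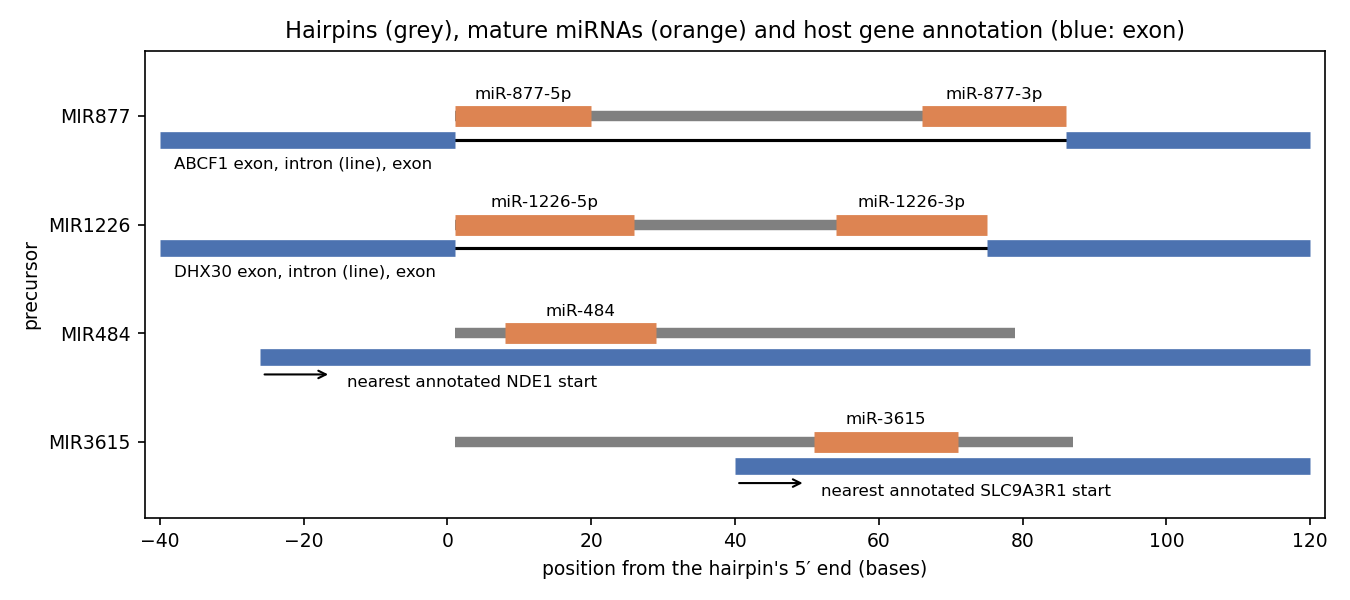
Position of 4 hairpins (grey) and their mature miRNAs (orange) on the annotated host gene, in bases from the 5′ end of each hairpin, with exons in blue. The hairpins of MIR877 and MIR1226 fill an intron (black line) from end to end, while MIR484 begins 27 bases after an annotated start and MIR3615 begins 39 bases before one.

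The libraries held between 9019266 and 11338580 counts. miR-21-5p, the most abundant row, took 44.7% to 51.5% of them. Levels are given as TMM-normalized CPM, which are counts scaled to a common library total with TMM factors that correct for such dominant rows. As a check of the cells, the 5 epithelial miRNAs of the miR-200 family summed to between 91.4 and 116 CPM, and miR-21-5p, miR-100-5p, miR-221-3p and miR-222-3p together to between 479167 and 871083 CPM. Each control library stood apart from the others on a marker list. 8 miRNAs typical of pluripotent stem cells summed to 347 CPM in control replicate 3 and to between 340.0 and 355 CPM in the RARαS77A libraries, against 0.160 and 0.0680 CPM in control replicates 1 and 2. Muscle miRNAs (4 rows) summed to 79.3 CPM in control replicate 1 and to between 2.04 and 5.84 CPM elsewhere, and the endocrine miR-375-3p was at 59.1 CPM in control replicate 2 and between 1.52 and 6.31 CPM elsewhere. The liver miRNA miR-122-5p lay between 6.73 and 63.5 CPM, and 6 blood miRNAs together between 27.1 and 40.2 CPM. The part of these differences in the results below was not tested, and results are given without control replicate 3 where they changed.

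All 9 miRNAs passed the filter on low counts, and they did not move as a group. With edgeR's quasi-likelihood test and a Benjamini-Hochberg adjusted p of 0.05 as the limit, miR-3615, miR-877-5p and miR-320a-3p were higher in RARαS77A cells and miR-484 was lower. This is 3 of 9 higher and 1 of 9 lower, where 23.3% of all 506 miRNAs tested were higher and 21.1% lower. The median log2 ratio of RARαS77A over control (log2FC) of the 9 miRNAs was 0.07, beside 0.06 over the other known miRNAs tested. The RARαS77A and control libraries did not overlap in CPM for 4 of the 9 miRNAs, and for 58.1% of all miRNAs tested. These shares give no result that is particular to the 9 miRNAs as a list, and the data are described below miRNA by miRNA.

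**Figure D2:**
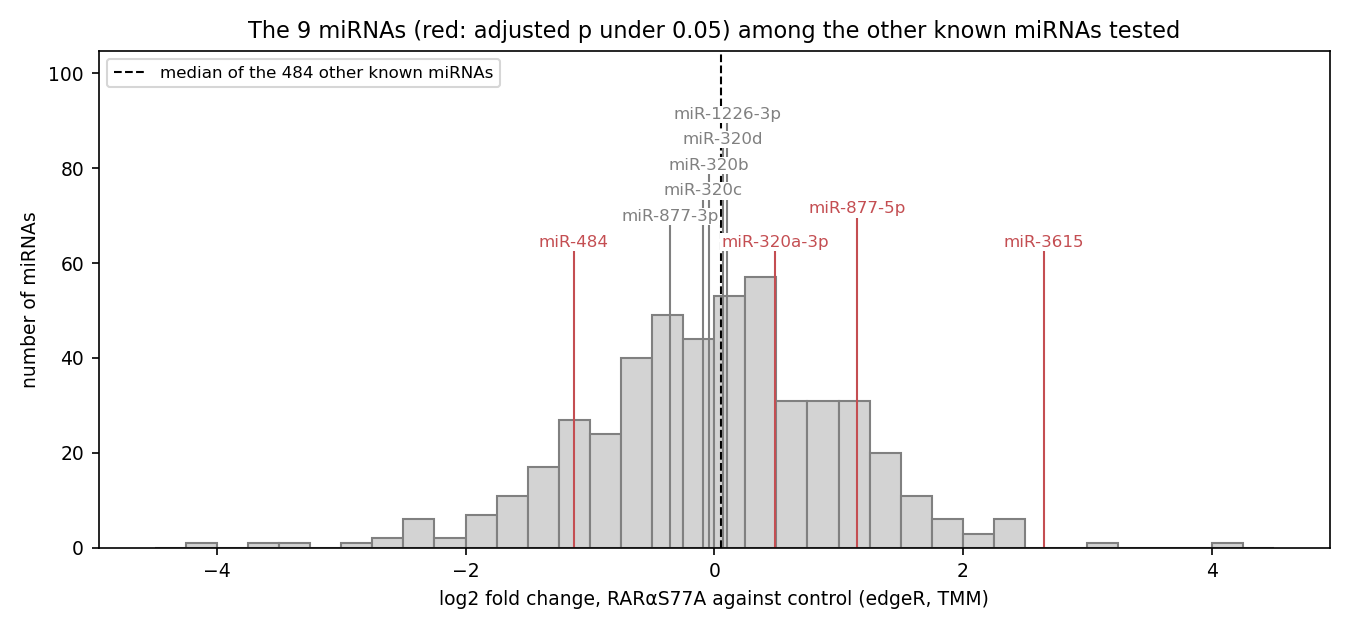
Number of the other known miRNAs tested (grey bars) by their log2FC between RARαS77A and control, with the 9 miRNAs as vertical lines, red where the adjusted p was under 0.05. The 5 miRNAs in grey lie between -0.35 and 0.11, close to the median of the other miRNAs (dashed), and only miR-3615 lies in the far tail.

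miR-3615 rose the most. Its counts were 254, 341 and 262 in the control libraries and 1137, 1378 and 955 in the RARαS77A libraries. In CPM these were 20.4, 23.2 and 23.9, and 145, 164 and 115, respectively. Every RARαS77A library held several times the level of every control library. The means were 22.5 ± 1.88 and 141 ± 24.7 CPM (SD, n = 3 each), a 6.28-fold difference. The log2FC was 2.65 (standard error, SE, 0.18, edgeR adjusted p = 0.000111), the third highest of the 506 miRNAs tested. By rank of count within a library, miR-3615 moved from between 194 and 208 to between 108 and 120.

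miR-484 moved the other way, although its hairpin also lies at the start of its host gene. It has been described as a regulator of mitochondrial fission and is often used as a reference miRNA in qPCR. Its counts were 1935, 2476 and 1963 in the control libraries and 471, 770 and 651 in the RARαS77A libraries. The CPM values were 155, 168 and 179 in control and 59.9, 91.7 and 78.4 in RARαS77A cells, with the lowest control library above the highest RARαS77A library. The means were 168 ± 12.1 and 76.7 ± 15.96 CPM (SD, n = 3 each). The log2FC was -1.13 (SE 0.17, edgeR adjusted p = 0.00171), so that the level in RARαS77A cells was 0.457 of that in control cells. It was 63rd from the lowest of the 506 miRNAs by log2FC. In rank of count it moved from between 104 and 109 to between 134 and 154.

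In the control libraries miR-484 thus had more counts than miR-3615, and in the RARαS77A libraries miR-3615 had more. For each count of miR-484, there were 0.131, 0.138 and 0.133 counts of miR-3615 in the control libraries, and in the RARαS77A libraries there were 2.41, 1.79 and 1.47. The ratio was nearly constant among the control libraries and spread more widely among the RARαS77A libraries. A ratio of counts in the same library does not depend on the scaling. On the log2 scale the ratio was -2.90 ± 0.03 in control and 0.89 ± 0.36 in RARαS77A cells (SD, n = 3 each), a 13.8-fold difference that no choice of normalization can change. The pair was chosen with earlier results of these data known. In raw counts, miR-3615 was higher and miR-484 lower in every RARαS77A library than in every control library. Separate ratios follow from these counts and are no further support. The two-sided exact permutation test gave p = 0.1, the smallest that 3 against 3 libraries allow, here and for each of the other 4 ratios compared, and also 0.1 after adjustment over these 5 ratios.

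**Figure D3:**
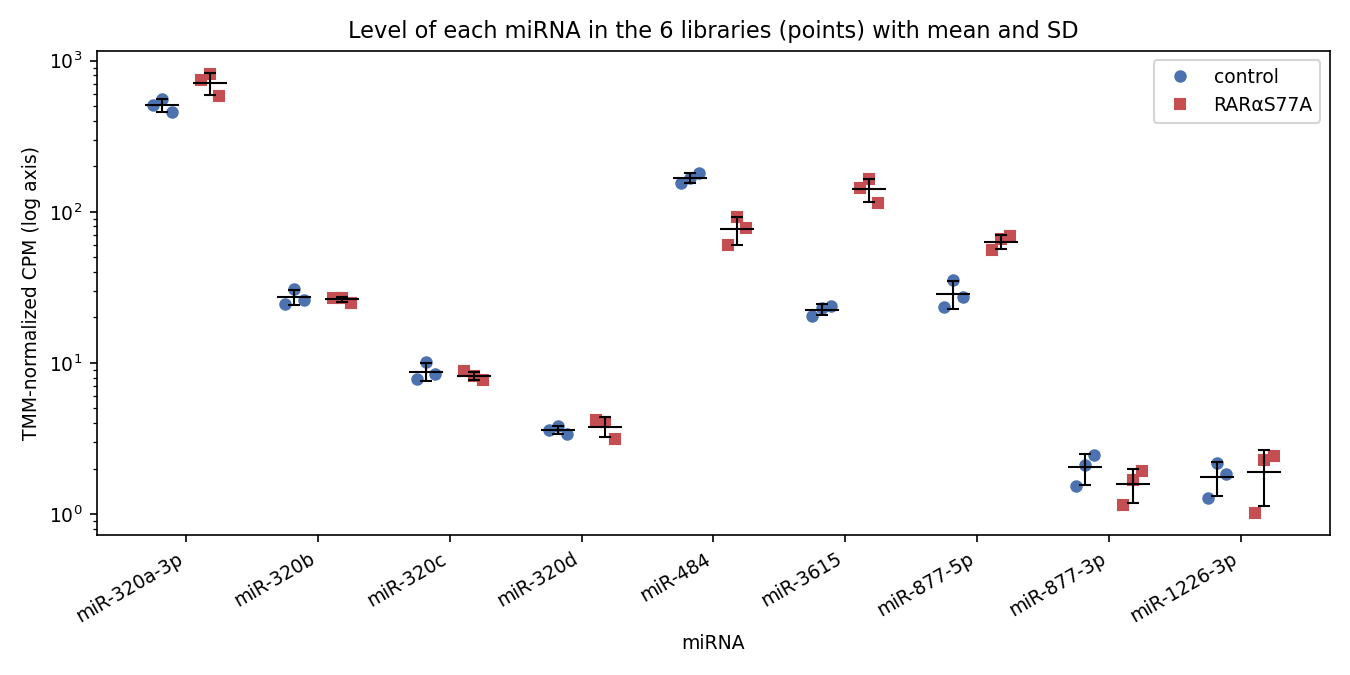
TMM-normalized CPM (log axis) of each of the 9 miRNAs in the 3 control (blue circles) and 3 RARαS77A (red squares) libraries, with the mean and SD in black. miR-3615, at 20.4 to 23.9 CPM in control cells, reaches 115 to 164 CPM, while miR-484 falls from 155 to 179 CPM to 59.9 to 91.7 CPM. The groups of miR-320b, miR-320c, miR-320d, miR-877-3p and miR-1226-3p overlap.

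The miR-320 family is represented by 4 rows of very unequal size. miR-320a-3p is the conserved member and was the most abundant of all 9 miRNAs, with 6358, 8146 and 5022 counts in the control libraries and 5858, 6819 and 4822 in the RARαS77A libraries. In CPM it was at 510.0, 554 and 459 in control and at 745, 812 and 581 in RARαS77A cells. The lowest RARαS77A library lay just above the highest control library. The means were 508 ± 47.5 and 713 ± 119 CPM (SD, n = 3 each), a log2FC of 0.49 (SE 0.14, edgeR adjusted p = 0.0246). This call was the least stable of the 4. It was lost without control replicate 1 (adjusted p = 0.0720, edgeR) or control replicate 3 (0.0612), and without RARαS77A replicate 1 (0.0998) or 2 (0.101). Scaled to total counts, the log2FC was -0.09 (edgeR adjusted p = 0.626), and over all alternatives the adjusted p ranged from 0.00464 to 0.626.

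The other 3 rows of the family, which are found in primates and share the seed shown above, did not pass the test. miR-320b had 308, 452 and 286 counts in control and 212, 227 and 208 in RARαS77A libraries, or 27.2 ± 3.15 and 26.3 ± 1.13 CPM (SD, n = 3 each), with a log2FC of -0.05 (SE 0.16, edgeR adjusted p = 0.820). miR-320c had between 92 and 149 counts in control and between 64 and 69 in RARαS77A libraries, at 8.77 ± 1.22 and 8.23 ± 0.536 CPM (SD, n = 3 each). miR-320d had between 37 and 56, and between 26 and 34 counts, at 3.60 ± 0.213 and 3.79 ± 0.578 CPM (SD, n = 3 each). Their log2FC values were -0.09 and 0.07 (edgeR adjusted p = 0.680 and 0.785). In CPM the groups overlapped for all 3, whereas their raw counts were lower in every RARαS77A library than in every control library.

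Set against miR-320a-3p in the same library, these rows were lower in every RARαS77A library than in every control library. For 100 counts of miR-320a-3p there were 4.84, 5.55 and 5.69 counts of miR-320b in the control libraries and 3.62, 3.33 and 4.31 in the RARαS77A libraries. The corresponding numbers for miR-320c were 1.53, 1.83 and 1.83, and 1.18, 1.01 and 1.33. For miR-320d they were 0.708, 0.687 and 0.737, and 0.563, 0.499 and 0.539. The groups did not overlap in any of the 3 ratios, but how often ratios of other miRNA pairs separate in these data was not determined. As all 3 are taken against miR-320a-3p, they are not independent of each other. The log2 ratio differed by -0.52 for miR-320b, by -0.56 for miR-320c and by -0.41 for miR-320d, which is 0.698, 0.678 and 0.754 of the control ratio (exact permutation test, two-sided, p = 0.1 each). The within-group SD of the log2 ratios lay between 0.05 and 0.20. miR-320a-3p made up 92.8% ± 0.548 of the counts of the 4 rows in control and 94.8% ± 0.607 in RARαS77A cells (n = 3 each, SD). How reads were shared between miR-320a-3p and the other 3 rows is not known, and these ratios and shares may depend on it. The counting error is not negligible here. The 95% Wilson intervals, which allow for counting error only, met between the highest control library (93.4%, from 92.8 to 94.0) and the lowest RARαS77A library (94.2%, from 93.5 to 94.8). With the 4 rows summed to a single row, the log2FC of the family was 0.46 (edgeR adjusted p = 0.0288).

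Of the mirtrons, miR-877-5p rose and its opposite strand did not pass the test. miR-877-5p is the strand that begins at the 5′ splice site. It had 293, 521 and 298 counts in the control libraries and 441, 553 and 571 in the RARαS77A libraries, and 23.5, 35.4 and 27.2 CPM against 56.1, 65.9 and 68.7 CPM. In CPM all RARαS77A libraries were above all control libraries, while the raw counts of control replicate 2 lay within the RARαS77A range. The means were 28.7 ± 6.10 and 63.6 ± 6.63 CPM (SD, n = 3 each), with a log2FC of 1.15 (SE 0.20, edgeR adjusted p = 0.00307). Scaled to total counts it was 0.56 (edgeR adjusted p = 0.0768), and over all alternatives the adjusted p ranged from 3.65e-09 to 0.0768.

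miR-877-3p, which ends at the 3′ splice site, had 19, 31 and 27 counts in control and 9, 14 and 16 in RARαS77A libraries. At 2.03 ± 0.476 and 1.58 ± 0.398 CPM (SD, n = 3 each) the groups overlapped, and the log2FC was -0.35 (SE 0.32, edgeR adjusted p = 0.399). Scaled to total counts, the log2FC was -0.93 (edgeR adjusted p = 0.0509), and limma on the TPM called miR-877-3p lower (-0.60, limma adjusted p = 0.0467), with adjusted p up to 0.713 over the alternatives. Both arms come from the same intron, and their ratio within a library does not depend on the scaling. For each count of miR-877-3p there were 15.4, 16.8 and 11.0 counts of miR-877-5p in the control libraries and 49.0, 39.5 and 35.7 in the RARαS77A libraries. The log2 ratio was 3.80 ± 0.32 in control and 5.30 ± 0.22 in RARαS77A cells (SD, n = 3 each), a 2.83-fold difference with no overlap (exact permutation test, two-sided, p = 0.1). As a share of both arms, miR-877-5p took 93.3% ± 1.44 and 97.6% ± 0.368 (SD, n = 3 each). The small number of miR-877-3p counts limits this result, as the 95% Wilson intervals also met here, between the highest control library (94.4%, from 92.1 to 96.0) and the lowest RARαS77A library (97.3%, from 95.6 to 98.3).

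miR-1226-3p was near the limit of what the depth allows. It had 16, 32 and 20 counts in control and 8, 19 and 20 in RARαS77A libraries. The levels were 1.76 ± 0.450 and 1.90 ± 0.764 CPM (SD, n = 3 each), and a difference was not detectable at this depth (log2FC of 0.11, SE 0.39, edgeR adjusted p = 0.825). Its opposite arm, miR-1226-5p, had at most 6 counts in a library and was not tested. In both groups miR-1226-3p took the larger part of the counts of the 2 arms in every library, with the lowest share at 66.7% (95% Wilson interval 39.1 to 86.2). The 2 mirtrons thus differ in the arm with more counts, the 5′ arm for miR-877 and the 3′ arm for miR-1226. For miR-1226, the interval of the lowest share includes an even split.

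**Figure D4:**
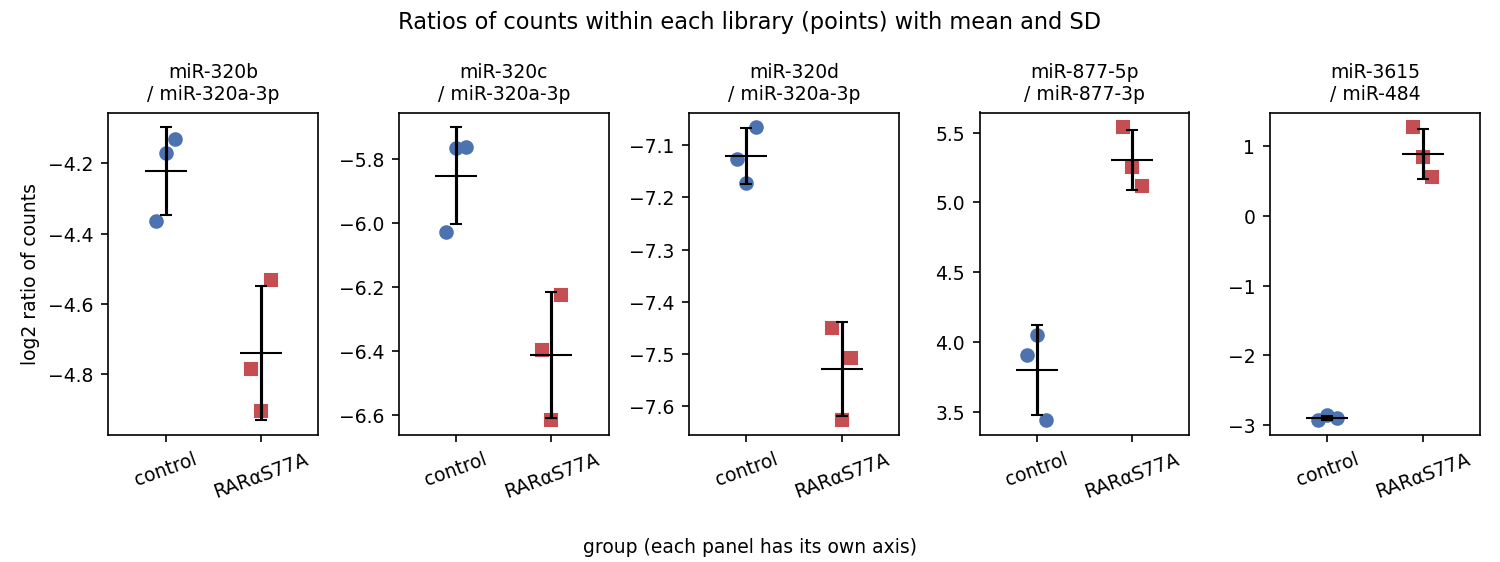
The log2 ratio of the counts of 2 miRNAs within each library, for 5 pairs, with control libraries as blue circles, RARαS77A libraries as red squares, and mean and SD in black (each panel has its own axis). The groups are separate in each panel, with miR-320b, miR-320c and miR-320d lower against miR-320a-3p, and miR-877-5p and miR-3615 higher against miR-877-3p and miR-484, in RARαS77A libraries. The CPM groups of 58.1% of all single miRNAs tested are also separate, and how often ratios of other pairs separate was not determined.

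How far each miRNA moved depended on the scaling, since total counts in place of TMM shifted the median log2FC of all tested miRNAs from 0.06 to -0.51. Scaled to total counts, miR-3615 was at 2.07 and miR-484 at -1.71, and both kept their calls. miR-3615 and miR-484 kept direction and call under all 17 alternatives, with log2FC values from 2.02 to 2.86 and from -1.71 to -0.93. miR-320b and miR-320c, which were not called with TMM, were called lower under total counts, at -0.63 and -0.68 (edgeR adjusted p = 0.0277 and 0.0260, with ranges over the alternatives from 0.0164 to 0.994 and from 0.0260 to 0.922). The median of all miRNAs tested was at -0.51 under this scaling. With upper quartile scaling, miR-320b and miR-320c were above 0, at 0.16 and 0.12, without a call. As a share of all counts, with no further scaling, the 9 miRNAs together made up 0.0942% ± 0.0117 in control and 0.0848% ± 0.0115 in RARαS77A cells (SD, n = 3 each), and the groups overlapped.

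**Figure D5:**
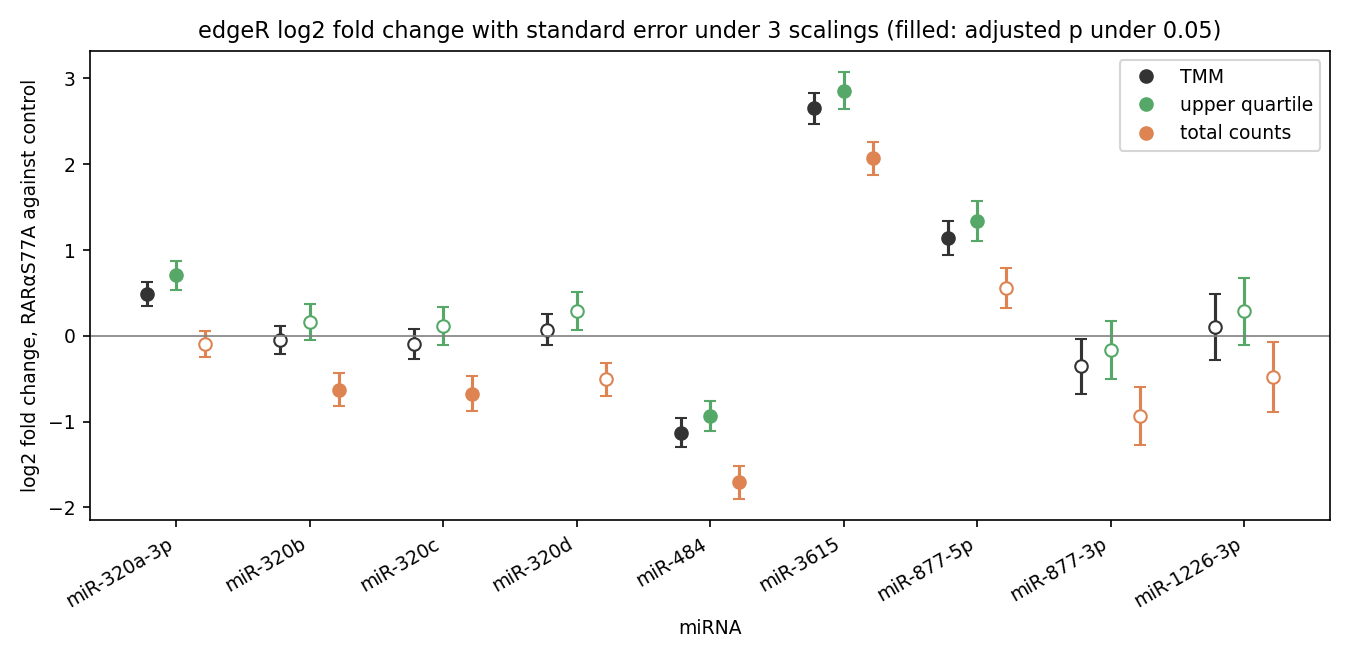
The edgeR log2FC of each of the 9 miRNAs, with its SE, under TMM (black), upper quartile (green) and total count (orange) scaling, filled where the adjusted p was under 0.05. miR-3615 and miR-484 stay on their side of 0 with a call under each scaling, whereas miR-320a-3p goes from 0.49 with TMM to -0.09 with total counts.

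Other miRNAs of these routes were scarcely found. Of a list of further mirtrons and of other miR-320 and miR-1226 arms, 11 rows were in the table, with at most 16 counts in any library, and none was abundant enough to be tested. miR-320a-5p, the opposite strand of miR-320a-3p, had between 2 and 16 counts, and miR-320e between 0 and 2. The mirtrons miR-1224-5p, miR-1227-3p, miR-1228-5p, miR-1229-3p, miR-1234-3p, miR-1236-3p, miR-1236-5p and miR-1237-3p had at most 8 counts in a library. Where none was counted, up to 3 counts remain possible. Of the 208 miRNAs numbered from miR-6716 to miR-6895, a series rich in mirtrons, 4 were tested and 2 of them were higher. These 4 are too few to compare with the 23.3% higher among all miRNAs tested. miR-6866-5p was higher, with 12, 9 and 5 counts in control and 39, 29 and 19 in RARαS77A libraries (log2FC of 2.37, edgeR adjusted p = 0.00298). With so few control counts, it passed the filter on low counts largely through the RARαS77A libraries. Its selection for the test was therefore not independent of the difference, which limits this call. miR-6873-3p was not called (log2FC of -0.24, edgeR adjusted p = 0.786).

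The seed of miR-484 is also found in miR-3155a and miR-3155b. miR-3155a had between 0 and 3 counts per library. miR-3155b had 6, 17 and 11 counts in control and 20, 18 and 15 in RARαS77A libraries. It was called higher with TMM (log2FC of 1.28, edgeR adjusted p = 0.0300), but its groups overlapped in raw counts and in TPM. The control library with 6 counts lay below the minimum count of the filter, while all RARαS77A libraries lay above it. Selection of miR-3155b for the test was therefore not fully independent of the difference, which limits this call. The counts of miR-3155a and miR-3155b were small beside the 471 to 2476 of miR-484, and do not settle whether the miRNAs with this seed moved together. The seed of miR-320b, miR-320c and miR-320d is shared by miR-4429, which had no row in the table. The seed of miR-320a-3p was not compared, as its sequence had no entry. Among all human mature sequences in the RefSeq table, no other miRNA has the seed of miR-3615, of either miR-877 arm or of miR-1226-3p.

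The miRNAs whose pattern over the 6 libraries was closest were found by the root mean square difference of the log2 CPM, centred for each miRNA, among 241 other known miRNAs. For miR-3615 they were miR-151a-3p (0.23), miR-7706 (0.23) and miR-3158-5p (0.35), with log2FC values from 2.29 to 3.02. For miR-484 they were let-7a-3p (0.12), miR-660-5p (0.13) and miR-93-5p (0.14), with log2FC values from -1.22 to -1.06. For miR-320a-3p they were miR-148b-5p (0.099), miR-95-3p (0.12) and miR-331-5p (0.13), with log2FC values from 0.32 to 0.57. The distances for miR-3615 are larger than those for the other 2 miRNAs, so that its pattern has less close neighbours. With 2 groups the distance depends largely on the log2FC, and only 2 of the 506 miRNAs tested had a higher log2FC than miR-3615. These are descriptions over 6 libraries in 2 groups.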

How the data were processed

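The authors deposited a table with raw read counts per miRNA in 6 small RNA libraries (NEBNext kit) and the same values as TPM. The deposited TPM equals counts scaled to a common column total, within 4.74e-05, with no length term. Per the labels, Bowtie was used. The sources used here do not give its version, the genome build, filters or the handling of reads with several matches. No column was left unassigned.

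Counts were tested on the whole table with edgeR 4.0.16 (R 4.3.3), using TMM, filterByExpr (minimum count of 10), glmQLFit and glmQLFTest without further terms, and Benjamini-Hochberg adjustment over 506 miRNAs. Standard errors were obtained by dividing each log2 fold change by √F. DESeq2 1.42.0, limma 3.58.1 on log2(TPM + 1), other scalings and filters, a replicate block, a summed miR-320 family and leaving out each library were alternatives. Ratios within a library used counts plus 0.5, and exact permutation tests and Wilson intervals used scipy 1.17.1.

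The named miRNAs are the 9 of the rule, a list of other Drosha-independent miRNAs, the 2 most abundant tested of miR-6716 to miR-6895, seed mates, and the 3 closest patterns (mean count of at least 100) to each of 3 members. Seed mates were added after the data were seen. Members and lists were chosen with earlier results of these data known. Marker lists covered epithelial, stem, muscle, liver, endocrine and blood cells.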

Additional observations from a re-analysis of the deposited data

How the results depend on the processing

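Scaling to total counts gave 51 higher and 213 lower miRNAs in place of 118 and 107, and limma on the TPM, which shares that scaling, gave 55 and 221. Without a filter 162 were lower, and the cause was not tested. Of the 9 miRNAs, 1 was higher and 3 were lower under total counts, and 4 were lower with limma. Their median log2 fold change, 0.07, became -0.51 under total counts, -0.40 with limma, -0.17 with totals that leave out the 5 most abundant, 0.29 under upper quartile scaling and 0.28 with the miR-320 rows summed, which leaves 6 values. A mean count of 50 also left 6 of the 9 miRNAs. DESeq2 called 3 of the 9 miRNAs higher and 1 lower, as edgeR did, beside 108 higher and 110 lower among all miRNAs tested.

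Changes of sign were as follows. miR-320a-3p went to -0.091 under total counts and -0.095 with limma. miR-320d was at -0.51 under total counts, -0.40 with limma, -0.17 without the 5 most abundant and -0.11 without a filter. miR-1226-3p was at -0.48, -0.32, -0.14 and -0.076 in the same settings. miR-320b and miR-320c were at 0.16 and 0.12 under upper quartile scaling. With single libraries left out, these lay from 0.37 to 0.63 (miR-320a-3p), -0.13 to 0.080 (miR-320b), -0.20 to 0.054 (miR-320c), -0.070 to 0.20 (miR-320d) and -0.11 to 0.34 (miR-1226-3p). Of 147 values of single miRNAs under the alternatives, 115 kept their direction and side of the limit, 7 lost the call, 5 gained one and 20 changed sign. miR-320a-3p also lost its call without a filter (0.30) and with totals that leave out the 5 most abundant (0.25). The 5 ratios kept their sign with 5 counts added and with each library left out.

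The labels number the libraries of both groups 1 to 3. The correlation between libraries of equal number, after the group mean was taken off, was 0.0353, 0.103 and 0.0165, and the libraries were not taken as paired. With a replicate block, 107 miRNAs were higher and 94 lower, and of the 9 miRNAs the same number, 3 higher and 1 lower. Counting error limits miR-320d, miR-877-3p and miR-1226-3p.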

Other observations

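The ratio of miR-320a-3p to miR-3615 was nearly the same in the 3 RARαS77A libraries. There were 5.15, 4.95 and 5.05 counts of miR-320a-3p for each count of miR-3615 (mean 5.05 ± 0.102, SD, n = 3), although their CPM varied between 581 and 812 and between 115 and 164. In the control libraries the ratio was 25.03, 23.9 and 19.2 (mean 22.7 ± 3.11, SD, n = 3). In CPM, miR-877-5p was highest in RARαS77A replicate 3, where miR-320a-3p and miR-3615 were lowest. This pair was chosen after the values had been seen, and no test was made of it.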
